A study of Saccharomyces cerevisiae with 9 samples.

Results

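The genes described here encode 32 factors that assemble the large (60S) subunit of the cytosolic ribosome in the budding yeast Saccharomyces cerevisiae or carry it out of the nucleus. They were taken by name, as factors of 60S assembly and export. Each was read through the array probe named after its systematic gene name, 32 of the 6947 probes on the array, and all 32 had a value on all 9 arrays.

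Total RNA had been extracted from cultures grown overnight in YPD, a rich medium, resuspended, and grown in 3 ml to an OD600 of about 0.3, and was hybridised to 2-colour arrays. On 6 arrays the mutator line m8 after 6700 generations of experimental evolution (Cy5) was set against its own ancestor (Cy3), which was already a mutator, that is, a strain with a raised mutation rate. On 3 arrays an evolved non-mutator strain, also after 6700 generations (Cy5), was set against its non-mutator ancestor (Cy3). The labels give no alleles, name 1 evolved line of each kind, and do not tell separate cultures from repeated handling of 1 culture. The p-values therefore cover the spread of these samples alone, part of which may be technical. The mutator arrays came in a first round and a repeat round that carried the same evolved RNA numbers 1, 2 and 3, and the pair of arrays of each number was averaged, giving 3 replicates in each group. By its title, the repeat array of evolved RNA 2 carried ancestor RNA 1, as did both arrays of evolved RNA 1. Mutator replicates 1 and 2 thus share an ancestor RNA number in part and are not fully independent.

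Each value below is a log2 ratio, evolved strain over ancestor, with the array's own median set to 0, so that 1 stands for a doubling relative to the middle gene of the array. Evolved over ancestor follows from the dyes in the labels and is not stated with the values. Means are given ± SD over 3 replicates, and a change is called where limma's adjusted p was under 0.05 over all 6866 probes tested. Each mutator replicate averages its first-round and its repeat array. A shift between rounds that the replicates share therefore does not enter these SDs or p-values. RNA came from whole cultures, so a change in every cell and a larger change in some of the cells cannot be told apart. Precision is limited by how many arrays there are, and mutator arrays had a wider spread of log2 ratios across all probes (SD 0.85 to 1.0) than non-mutator arrays (SD 0.28 to 0.30).

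The large subunit is built around a precursor of the ribosomal RNA, first in the nucleolus, then in the nucleoplasm and last in the cytoplasm. Helicases, GTPases, methyltransferases and scaffold proteins bind and leave the particle in order, the internal spacer ITS2 is cut out of the RNA, and export factors carry the particle through the nuclear pore. In yeast these genes are a core of the ribosome biogenesis regulon, whose transcript levels follow growth conditions and fall in many stresses.

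All 32 genes rose in the mutator line and all 32 lay above 0 on each of the 6 mutator arrays. Of all probes tested, 37.3% were called higher in the mutator line and 75.1% in either direction. Their mean log2 ratios ran over a range of 0.68 (SPB4) to 2.61 (RSA4), with a median of 1.61 ± 0.05 (SD of the 3 replicate medians), beside a median of 0.02 over all probes tested. At least 2-fold increases were seen in 30 of the 32 genes, against 7.28% of all probes, and at least 4-fold increases in 7 of the 32, against 0.481% of all probes. Adjusted p-values of the 32 genes ran over a range of 6.9e-07 to 3.9e-04 (limma). In the non-mutator strain the median of the same genes was 0.15 ± 0.04 (SD of the 3 replicate medians). None of them rose 2-fold there, but only 15 of the 6866 probes tested did, so this absence does not set the genes apart. The 2 groups of arrays did not overlap for any of the 32 genes, a separation also seen in 27.1% of all probes. The plot of the genes on each array shows this gap.

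**Figure D1:**
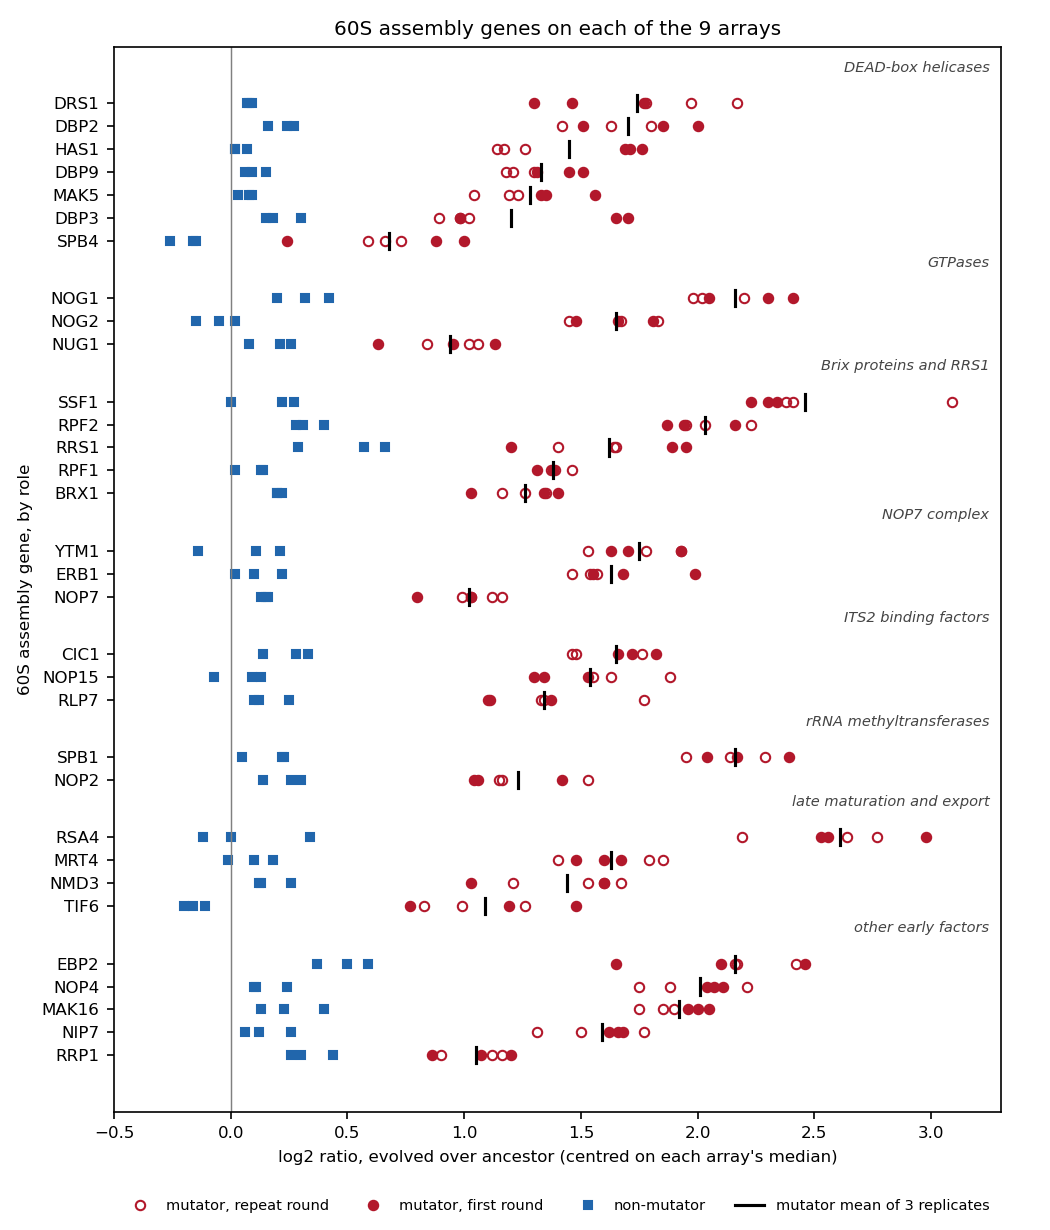
Log2 ratio, evolved over ancestor (horizontal axis, each array's median at 0) of the 32 genes (vertical axis, grouped by role and sorted by mutator mean). Open and filled circles are single repeat and first-round mutator arrays, squares are single non-mutator arrays, bars are mutator means of 3 replicates, and for each gene all 6 circles lie to the right of all 3 squares, with SPB4 the lowest and RSA4 the highest mutator mean.

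The DEAD-box RNA helicases, which remodel RNA within the early particle, held the lowest of the 32 values and no 4-fold change. All 7 rose, with a median of 1.33. DRS1 stood at 1.74 ± 0.18 and DBP2, which also acts on messenger RNA, at 1.70 ± 0.17 (SD, n = 3). HAS1 followed at 1.45 ± 0.02, DBP9 at 1.33 ± 0.08, MAK5 at 1.28 ± 0.11 and DBP3 at 1.20 ± 0.23. SPB4 had log2 ratios of 0.66, 0.59 and 0.73 on repeat arrays 1, 2 and 3 and of 0.24, 0.88 and 1.0 in the first round, against -0.26, -0.16 and -0.15 on non-mutator arrays 3, 4 and 2. It was thus above 0 on every mutator array and below 0 on every non-mutator array. Its mutator mean of 0.68 ± 0.21 passed (adjusted p = 3.9e-04, limma), while its non-mutator mean of -0.19 ± 0.07 did not (adjusted p = 0.16, limma).

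Of the GTPases that act in the nucleus, NOG1, an early and long-bound placeholder, rose most. It read 1.98 to 2.41 on the 6 mutator arrays, against 0.20, 0.42 and 0.32 in non-mutator replicates 3, 4 and 2. NOG2, which guards the step before export, read 1.45 to 1.83 on mutator arrays, against -0.15, -0.05 and 0.02. NUG1, a nucleolar GTPase, reached 0.94 ± 0.08 and was with SPB4 one of the 2 genes under a 2-fold increase. Its highest mutator array (1.13) lay below the lowest array of NOG1 and of NOG2.

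Proteins with a Brix domain, a fold that binds RNA in assembly factors, spread widely. SSF1 rose by 2.46 ± 0.17 (SD, n = 3), which is 5.50-fold, and RPF2 by 2.03 ± 0.07. RPF1 stood at 1.38 ± 0.01 and BRX1 at 1.26 ± 0.07. RPF2 works together with RRS1 to bring the 5S ribonucleoprotein into the particle. RRS1 read 1.20 to 1.95 in the mutator line, against 0.57, 0.66 and 0.29 in non-mutator replicates 3, 4 and 2, with a mutator mean of 1.62 ± 0.28, the largest SD of the 32 genes. RPF2 read 1.87 to 2.23 in the mutator line, against 0.28 to 0.40 in the non-mutator strain, so that the mutator ranges of the 2 partners overlapped.

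SSF1 was read high on 1 array. It stood at 3.09 on the repeat array of RNA number 2 and at 2.23 to 2.41 on the other 5 mutator arrays, and with that array left out its mean was 2.32 (adjusted p = 1.3e-06, limma). SSF1 has a near-identical paralogue, SSF2, so that either probe may also read RNA of the other gene. On the same array the SSF2 probe gave its lowest value, -1.22, against 0.41 and 0.88 on the other repeat arrays and 1.0 to 1.07 in the first round. SSF2 had a mutator mean of 0.53 ± 0.56 and passed narrowly (adjusted p = 0.0429, limma). That call was lost when mutator replicate 1 or 3 was left out (0.44 and 0.30) or any single non-mutator replicate (0.53 each). It was also lost on repeat arrays alone (0.03) and under several other alternatives. In that repeat hybridisation evolved RNA 2 was set against ancestor RNA 1 and not ancestor RNA 2; whether this plays a part in these readings was not tested.

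NOP7, ERB1 and YTM1 encode the 3 subunits of 1 complex that is needed for processing of the ITS2 end of the particle. All 3 rose, but not equally. NOP7 read 0.80 to 1.16 on the 6 mutator arrays, below every mutator array of ERB1 (1.46 to 1.99) and of YTM1 (1.53 to 1.93). On non-mutator arrays NOP7 read 0.13 to 0.16, ERB1 0.02 to 0.22 and YTM1 -0.14 to 0.21, so that the 3 genes overlapped there.

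Factors bound at ITS2 lay near the middle of the 32 genes. CIC1 stood at 1.65 ± 0.09, NOP15 at 1.54 ± 0.08 and RLP7 at 1.34 ± 0.11 (SD, n = 3). RLP7 resembles the ribosomal protein of the RPL7 genes, which stood lower, RPL7A at 0.55 ± 0.07 and RPL7B at 0.48 ± 0.09 in the mutator line. Of the rRNA methyltransferase genes, SPB1 (2.16 ± 0.11) rose more than NOP2 (1.23 ± 0.10), and their mutator arrays (1.95 to 2.39 and 1.04 to 1.53) did not overlap.

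Among other early factors, EBP2 stood at 2.16 ± 0.22, NOP4, an RNA-binding protein, at 2.01 ± 0.12 and MAK16 at 1.92 ± 0.04. NIP7 followed at 1.59 ± 0.12 and RRP1 at 1.05 ± 0.16 (SD, n = 3). EBP2 read 1.65 to 2.46 on mutator arrays, against 0.50, 0.59 and 0.37 on non-mutator arrays 3, 4 and 2. It thus lay above 0 on every array of both strains, as did NOP4, MAK16, RRP1 and NIP7. Of the full set of assembly and export genes, 24 lay above 0 on all 3 non-mutator arrays, so this does not set EBP2 apart.

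The late factors included the highest value. RSA4, whose protein is pulled off the particle by the ATPase Rea1 before export, read 2.64, 2.77 and 2.19 on repeat mutator arrays 1, 2 and 3 and 2.53, 2.56 and 2.98 in the first round. On non-mutator arrays 3, 4 and 2 it read -0.12, 0.0 and 0.34. The mutator mean of 2.61 ± 0.05 (SD, n = 3) is a 6.11-fold increase and was the 10th highest of the 6866 probes tested. MRT4, a placeholder for the stalk protein P0, stood at 1.63 ± 0.08, while the probe of P0 itself, RPP0, stood at 0.10 ± 0.06 and did not pass (adjusted p = 0.102, limma), although it passed without centring (0.20) and on repeat arrays alone (0.17). NMD3, the adaptor for nuclear export, read 1.03 to 1.67 in the mutator line, against 0.12 to 0.26 in the non-mutator strain. TIF6, which keeps the new subunit from joining the small one too early, read 0.77 to 1.48 on mutator arrays, against -0.16, -0.20 and -0.11 on non-mutator arrays 3, 4 and 2.

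The hybridisation rounds were compared as batches within the mutator arrays. None of the 32 genes passed the test of repeat minus first round, beside 1.29% of all probes called (0.767% higher and 0.521% lower; limma, paired by RNA number). An unadjusted p under 0.05 was seen in 3 of the 32 genes and in 18.4% of all probes. The differences ran over a range of -0.53 (HAS1) to 0.46 (DRS1). HAS1 read 1.14 to 1.26 on repeat arrays, against 1.69 to 1.76 on first-round arrays, without overlap (adjusted p = 0.148, limma). DBP3 read 0.89, 0.98 and 1.02 on repeat arrays, against 0.98, 1.65 and 1.70 on first-round arrays. Each round alone called all 32 genes higher. The share of all probes called higher by each round alone is not given here, and in the main fit it was 37.3%. Across the 32 genes, Pearson's r was 0.788 to 0.857 between arrays of different rounds, 0.905 to 0.944 within the repeat round and 0.803 to 0.956 within the first round. These correlations are across genes on shared arrays and describe how far the order of the genes was kept.

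**Figure D2:**
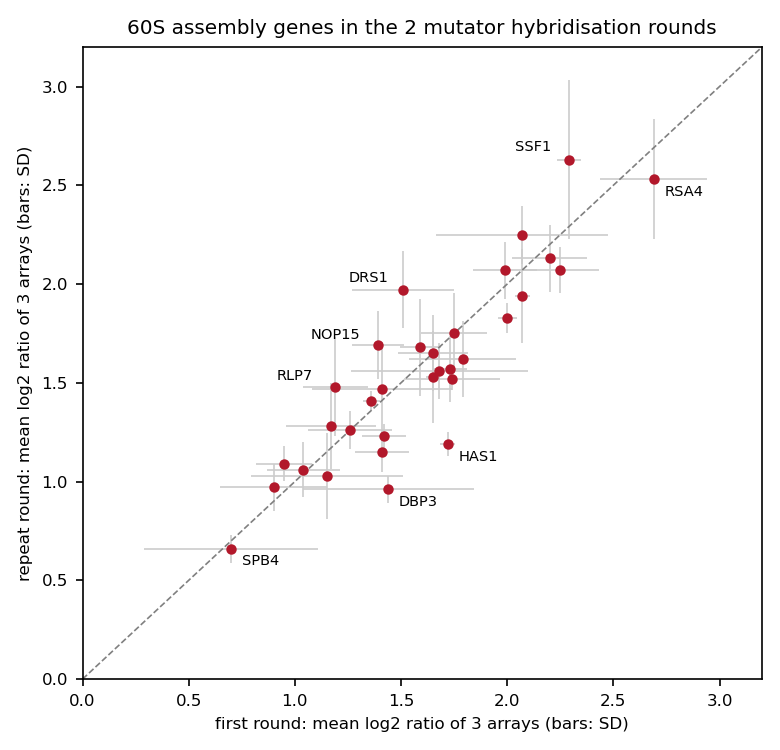
Mean log2 ratio of each of the 32 genes on the 3 repeat arrays (vertical axis) against the 3 first-round arrays (horizontal axis) of the mutator line, with bars of 1 SD and a dashed line of equal values. SPB4 is lowest in both rounds, SSF1 is highest in the repeat round and RSA4 in the first round, HAS1 and DBP3 lie below the line and DRS1 above it.

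The non-mutator strain, the control of the design, was asked the same question of its own ancestor. Of the 32 genes, 9 rose, 0 fell and 23 did not pass, beside 10.2% of all probes called higher, 11.1% called lower and 21.2% in either direction. Means above 0 were seen in 29 of the 32 and in 49.1% of all probes, and an unadjusted p under 0.05 in 16 of the 32 and in 34.9% of all probes. The 9 were RRS1 (0.51 ± 0.19), EBP2 (0.49 ± 0.11), RPF2 (0.33 ± 0.06), RRP1 (0.33 ± 0.09), NOG1 (0.31 ± 0.11), MAK16 (0.25 ± 0.13), CIC1 (0.25 ± 0.10), NOP2 (0.23 ± 0.09) and BRX1 (0.21 ± 0.01), with adjusted p-values of 0.0076 to 0.0355 (limma). Means of the 23 genes that did not pass ran over a range of -0.19 to 0.22, and their 95% confidence intervals lay within -0.39 and 0.42, below the mutator mean of each of these genes. NOP7, with the smallest SD of this comparison together with BRX1 and DRS1, stood at 0.15 ± 0.01 and missed the threshold (adjusted p = 0.061, limma). The fit uses 1 estimate of the spread per gene for both strains. These p-values therefore also carry the spread of the mutator replicates, for NOP7 an SD of 0.07.

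The non-mutator count depended on the arrays and the scaling used, and so did the count over all probes. It was 1 without non-mutator replicate 2, 0 without replicate 4 and 1 without replicate 3. It was 21 (with 2 lower) when every array was given an equal median absolute deviation. Counts over all probes moved as well. That scaling gave 1739 higher and 1716 lower, against 698 and 759 in the main fit. Leaving out 1 replicate also brought the all-probe count below 698 in at least 1 case. Without 1 replicate, means of the 9 genes called stayed between 0.18 (MAK16) and 0.61 (RRS1).

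The difference between the 2 changes was tested for each gene. All 32 genes rose more in the mutator line than in the non-mutator strain, beside 33.0% of all probes called higher, 30.9% lower and 63.9% in either direction in this contrast. At least 2-fold differences were seen in 26 of the 32 (7.65% of all probes) and at least 4-fold differences in 2 (0.539%). The differences ran over a range of 0.72 (RRP1) to 2.54 (RSA4), with a median of 1.43 and adjusted p-values of 7.5e-06 to 0.00138 (limma). For RSA4 the 95% confidence interval of the difference was 2.24 to 2.84, for SSF1 2.01 to 2.58 and for SPB1 1.79 to 2.21. At the lower end it was 0.48 to 0.96 for RRP1, 0.56 to 0.95 for NUG1, 0.72 to 1.02 for NOP7 and 0.59 to 1.15 for SPB4. For RRS1, which differed by 1.11, it was 0.71 to 1.52. SPB4, lowest in both strains, differed by 0.87. The 4 genes with the highest non-mutator means were spread over the mutator range, at 2.16 (EBP2), 2.03 (RPF2), 1.62 (RRS1) and 1.05 (RRP1). Over all 32 genes the 2 changes were weakly correlated (Pearson's r = 0.324, Spearman's rho = 0.188, n = 32 genes, a description across genes that share arrays). With an equal median absolute deviation on every array, the median difference was 0.67. The difference then no longer passed for DBP3 (0.31), NUG1 (0.18), NOP2 (0.26) and EBP2 (0.28). RRS1 (-0.11) and RRP1 (-0.09) turned in direction without passing.

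**Figure D3:**
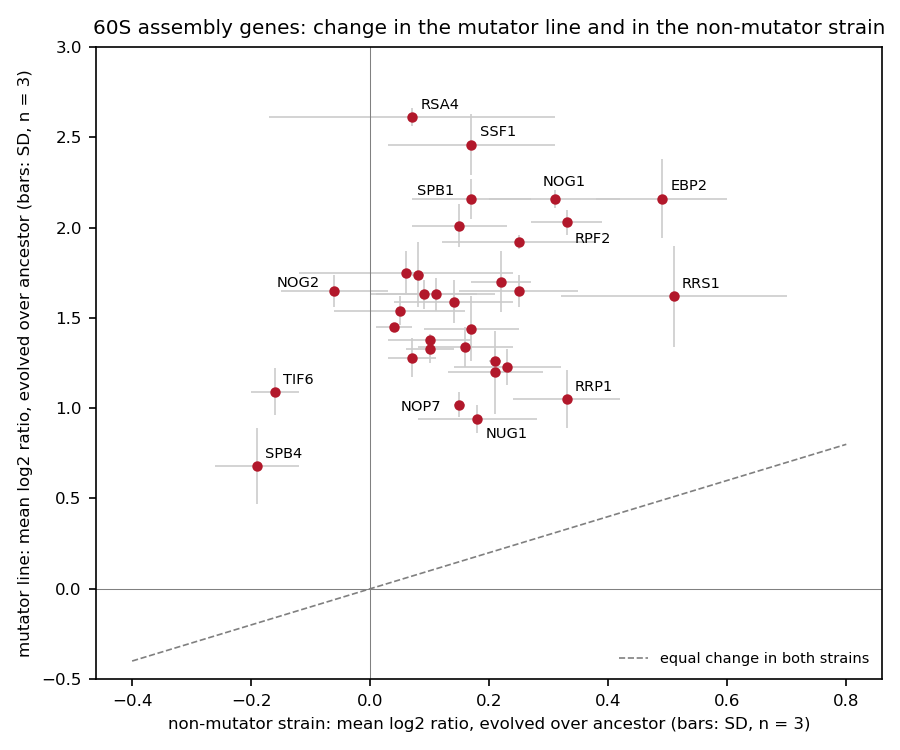
Mean log2 ratio of the 32 genes in the mutator line (vertical axis) against the non-mutator strain (horizontal axis), with bars of 1 SD (n = 3 each); the dashed line marks equal change. All 32 points lie above the line, with RSA4 and SSF1 farthest from it, and EBP2 and RRS1 farthest to the right.

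A longer list of 62 other genes of 60S assembly, export and rRNA processing, all of them on the array, was set beside the 32. In the mutator line 60 of the 62 rose and 2 fell, with a median of 1.25 ± 0.04 (SD of the 3 replicate medians), against 37.3% of all probes higher and 37.8% lower. In the non-mutator strain 10 of the 62 rose and 2 fell, with a median of 0.09 ± 0.04, against 10.2% of all probes higher and 11.1% lower. The 4 with the smallest p in the mutator line were the DEAD-box helicase gene DBP7 (2.20 ± 0.01), REI1, a cytoplasmic recycling factor (1.77 ± 0.08), IPI1, of the Rix1 complex (1.54 ± 0.06), and CGR1 (2.14 ± 0.13). The 2 genes that fell were LAS1 and REH1. LAS1 encodes the endonuclease that cuts ITS2. It read -1.54, -1.33 and -0.75 on repeat mutator arrays 1, 2 and 3 and -1.07, -1.93 and -1.96 in the first round, against 0.08, 0.14 and -0.08 on non-mutator arrays 3, 4 and 2. Its mutator mean of -1.43 ± 0.18 (adjusted p = 1.1e-05) differed from the non-mutator mean by -1.48 (limma). GRC3, the kinase that forms a complex with Las1, was looked up after these values were seen and stood at 1.10 ± 0.11. REH1, a paralogue of REI1, stood at -0.44 ± 0.06. Its difference from the non-mutator strain, -0.29, turned to 0.06 under the same scaling of arrays.

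**Figure D4:**
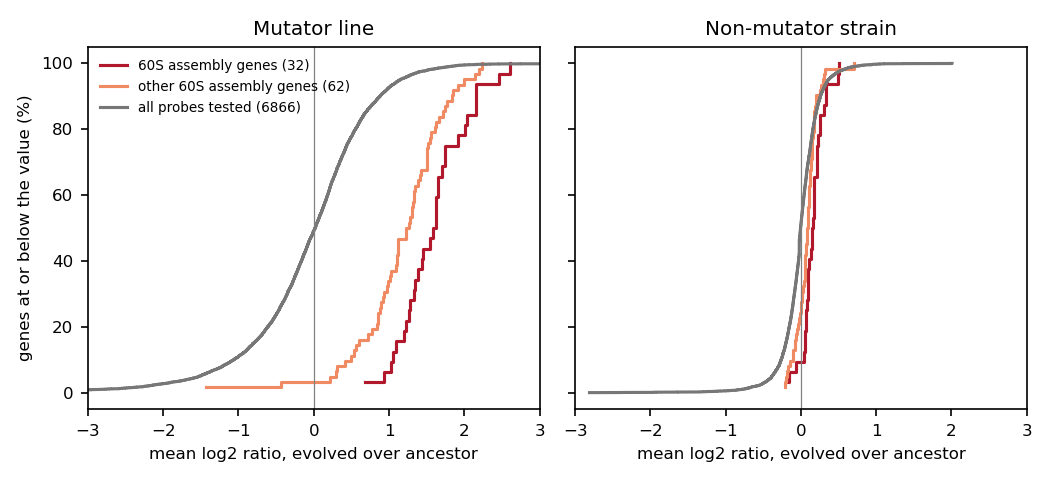
Cumulative share of genes (vertical axis, percent) at or below each mean log2 ratio (horizontal axis, drawn from -3 to 3) in the mutator line (left) and the non-mutator strain (right), for the 32 genes, 62 other 60S assembly genes and 6866 probes tested. In the mutator line both lists lie to the right of all probes (medians 1.61, 1.25 and 0.02); in the non-mutator strain the medians are 0.15, 0.09 and 0.0.

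Known regulators of ribosome genes moved in both directions in the mutator line: of 8, 4 rose, 3 fell and 1 did not pass, close to the shares of all probes (37.3% higher and 37.8% lower). TOD6 and DOT6 encode related repressors that bind a promoter element of ribosome biogenesis genes. TOD6 rose (1.58 ± 0.02, and 0.35 ± 0.08 in the non-mutator strain), while DOT6 fell (-0.44 ± 0.11, and 0.01 ± 0.08 in the non-mutator strain). STB3, a repressor that binds another such element, fell (-0.43 ± 0.07, and 0.15 ± 0.02 in the non-mutator strain). SFP1, an activator of these genes, fell by 0.24 ± 0.10 as a mean, but its call was lost without centring (-0.14), with an equal median absolute deviation on every array (-0.16) and on first-round arrays alone (-0.05). Of the activators of ribosomal protein genes, FHL1 stood at 0.76 ± 0.29 and IFH1 at 1.34 ± 0.71, both higher. The kinase gene SCH9, which acts downstream of TORC1, rose (0.54 ± 0.05, and -0.18 ± 0.10 in the non-mutator strain). CRF1, a corepressor gene, stood at 0.56 ± 0.76 and did not pass, with values on 4 of the 6 mutator arrays only, and passed (0.97) without mutator replicate 2. In the non-mutator strain TOD6 was the 1 regulator called, and its call was lost without non-mutator replicate 4 (0.31, adjusted p = 0.0558, limma). STB3, IFH1 and CRF1 passed in that strain with each group fitted alone (0.15, 0.57 and -0.52) and with equal array spreads (0.35, 1.30 and -1.22).

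The chromosomal neighbours of the 32 genes, which lie on 14 chromosomes, were read for comparison. A neighbour here is the next gene on either side that has a probe. Of 63 such genes, 30 rose, 15 fell and 18 did not pass in the mutator line, with a median of 0.14, beside 37.3% of all probes higher and 37.8% lower. The mean of the 60S gene was above that of both neighbours in 30 of 32 cases, against 32.8% of 5537 genes with 2 such neighbours. RSA4 stood at 2.61 between IMG2 (0.06 ± 0.07) and SSK22 (-0.04 ± 0.23). SPB1, on the same chromosome III, lay between KAR4 (0.08 ± 0.07) and PBN1 (-0.55 ± 0.06), and SSF1 between RRP3, a helicase of small-subunit processing (0.89 ± 0.10), and HTD2 (-0.30 ± 0.11). The 2 exceptions were SPB4, below DEG1 (0.85 ± 0.08), and NMD3, below DBP8, also a helicase of small-subunit processing (1.95 ± 0.07). SPB4 lay above its other neighbour, MSH4 (-1.05 ± 1.29), which did not pass (adjusted p = 0.0613, limma). MSH4 read -4.86 on the repeat array of RNA number 2. The lowest of the neighbours, named after the values were seen, was RTC3 (-4.40 ± 0.07), beside RPF1 (1.38).

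**Figure D5:**
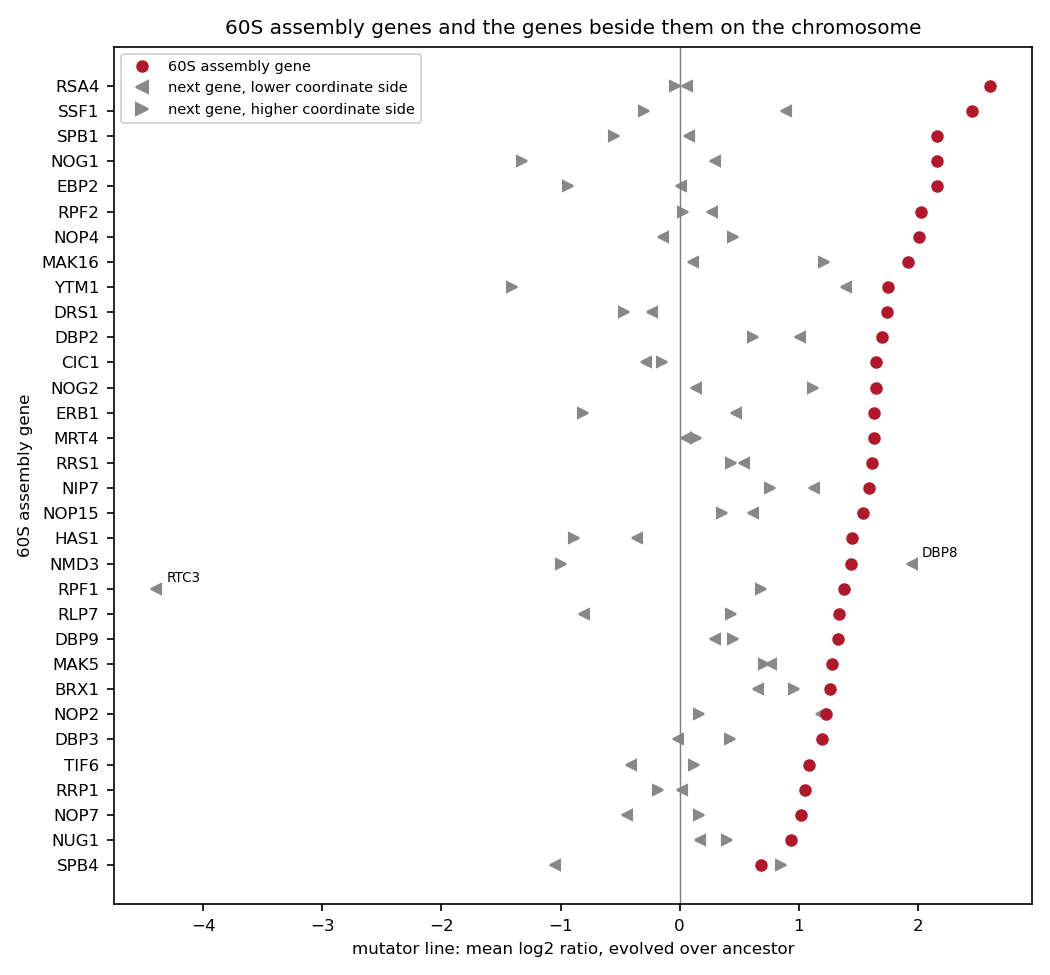
Mean log2 ratio in the mutator line (horizontal axis) of the 32 genes (circles, one row each, sorted) and of the next gene on each side of it (triangles). The circles lie to the right of both triangles in 30 rows; the exceptions are SPB4 and NMD3, and RTC3 beside RPF1 is the lowest neighbour.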

How the data were processed

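The authors deposited 1 linear ratio per probe and array, channel over channel, with the evolved strain in Cy5 and its ancestor in Cy3 per the labels. For background correction, normalization and software: not given in the sources used here. Dyes were not swapped. Column medians were 1.001 to 1.075 before centring. Ratios at 0.01, the lowest on every array, were set to missing (none was a 60S assembly gene of the 32), ratios were turned into log2 and centred on each array's median, and both arrays of a mutator RNA number were averaged. Non-mutator arrays carry replicate numbers 2, 3 and 4 by their titles, while their descriptions give other numbers.

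Probes with at least 2 replicates in each group (6866, 81 not tested) were fitted in limma 3.58.1 (R 4.3.3, lmFit and eBayes, 1 mean per group, 4 residual degrees of freedom, two-sided, Benjamini-Hochberg over all probes). The fit was tested on simulated data. Symbols and gene order came from the R64 RefSeq table, whose coordinates are not printed because the array's build is not named. The genes and lists were chosen with earlier results of these data known. Named were all 32 genes, all 8 regulators, of the 62 other genes the 4 with the smallest p and those that fell, paralogues, and neighbours of the 3 highest and the lowest gene. Alternatives covered centring, scaling, replicates, rounds, filters, threshold, robust eBayes and a replicate block; leaving out the repeat array of RNA number 2 was added after seeing the data.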

Additional observations from a re-analysis of the deposited data

Results flagged for a closer look

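SSF1 on the repeat mutator array of RNA number 2 (3.09) lay far from the other 5 mutator arrays (2.23 to 2.41), a gap above the critical value of Dixon's test, which chance passes in about 1 in 20 groups. It was the 1 such array among the 32 genes. The changes of the mutator line and the non-mutator strain differed by limma's test in 32 of 32 genes, all higher. Of all probes tested, 63.9% differed in either direction and 33.0% were higher.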

How the results depend on the processing

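All 32 genes stayed higher, and 0 lower, in the mutator line and, except under scaling of arrays, in the difference, in every alternative run. In the main fit 37.3% of all probes were called higher in the mutator line and 33.0% in the difference. For most alternatives these shares are not given here. Scaling to the same median absolute deviation moved the mutator median to 1.05, the non-mutator median to 0.36 and that of the difference to 0.67, with 21 higher and 2 lower 60S assembly genes in the non-mutator strain. Over all probes it gave 1693 higher in the mutator line, and 1739 higher and 1716 lower in the non-mutator strain. Under it the difference turned for RRS1 (-0.11), RRP1 (-0.09), RIA1 (-0.38), SYO1 (-0.03), ECM1 (-0.19) and REH1 (0.06), and no longer passed for DBP3 (0.31), NUG1 (0.18), NOP2 (0.26) and EBP2 (0.28) among the 32 genes, nor for TOD6 (0.22), DOT6 (-0.32) and HTD2 (-0.14) among the other genes named. CRF1 turned to -0.24 in the difference with the lowest ratios kept. Without centring the mutator median was 1.71 and that of the difference 1.52. Repeat arrays alone gave medians of 1.54 and 1.35, and leaving out replicates gave mutator medians of 1.54 to 1.61.

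In the non-mutator strain, 60S assembly genes called higher numbered 0 with 6 mutator arrays as replicates or the round as a random block, 3 with first-round and 5 with repeat mutator arrays only, 14 (with 2 lower) with each group fitted alone and 1 at an adjusted p under 0.01. Leaving out 1 replicate gave 0 to 13 higher and 0 to 1 lower. All probes called higher and lower in that strain numbered 140 and 157, 135 and 158, 421 and 447, 355 and 386, 1246 and 1233, and 242 and 262 under the same 6 alternatives in that order, and 164 to 911 higher and 177 to 964 lower without 1 replicate. The cause was not tested, other than that the strains share 1 estimate of the spread in all but the separate fits. The replicate numbers the groups share do not pair samples (deviations of same-numbered replicates correlated at -0.02 and 0.016). With the replicate block all 32 differences passed, with a median of 1.46. The share of all probes passing with that block is not given here, and in the main fit it was 63.9% in either direction. Counts of promoter motifs, also planned, were not run.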
